A study of Mus musculus with 16 samples.

Results

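C-type lectin receptors were followed across microglia that had or had not taken up amyloid. The 8 genes examined were Clec7a, Clec4n, Clec5a, Clec4a1, Clec4a2, Clec4a3, Clec12a and Clec2d, picked by symbol, and 7 of the 8 were among the 17951 genes of the deposited table. Clec4n, the gene of Dectin-2, has no row under its symbol or its Ensembl identifier and was not analysed here.

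RNA was sequenced from 16 libraries of microglia sorted from mouse brain as live single cells carrying CD11b, CD45 and CX3CR1. WT microglia without Me-X04 signal came from 7 wild-type mice aged 2 months by the labels. Microglia of 5xFAD mice aged 6 months by the labels were sorted into TG Me-X04- cells (5 libraries) and TG Me-X04+ cells (4 libraries). All mice were injected with methoxy-X04 (Me-X04), a dye that crosses into the brain and fluoresces on amyloid, so that the Me-X04+ cells are those carrying amyloid at the time of sorting. The 5xFAD line carries human transgenes for amyloid formation under the neuronal Thy1 promoter. The Me-X04- and Me-X04+ TG libraries of one number carry 1 animal label, for 4 animals, whereas WT libraries of the same number are other mice. Because WT and TG mice differ in age as well as genotype, these cannot be told apart in any comparison with WT, and the study's methods give ages other than the labels do.

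C-type lectin receptors are membrane proteins of myeloid cells that read sugars, or in several cases proteins and lipids, through a C-type lectin-like domain. The activating members signal through an ITAM-like motif, either in their own tail, as in Dectin-1 (Clec7a, the receptor for fungal β-glucan), or in an adaptor, as in MDL-1 (Clec5a, which pairs with DAP12 and DAP10). Both routes lead to the kinase Syk and from there to CARD9. The inhibitory members, DCIR (Clec4a2) and MICL (Clec12a), carry an ITIM motif that recruits the phosphatases SHP-1 and SHP-2. Clec7a is also known as a gene of the disease-associated state of microglia around amyloid plaques.

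The 7 measured genes lie in 3 places on mouse chromosome 6 (GRCm38). Clec5a (ENSMUSG00000029915) stands alone at positions 40574894 to 40585821 on the minus strand. Clec4a1 (ENSMUSG00000049037, 122921848 to 122934619), Clec4a3 (ENSMUSG00000043832, 122952515 to 122969875) and Clec4a2 (ENSMUSG00000030148, 123106428 to 123143999) follow each other on the plus strand. Further along come Clec2d (ENSMUSG00000030157, 129180615 to 129186534, plus), Clec12a (ENSMUSG00000053063, 129342691 to 129365303, plus) and Clec7a (ENSMUSG00000079293, 129461591 to 129472779, minus). The annotation types Clec7a as a polymorphic pseudogene and the other 6 as protein coding.

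The sequences before the start sites are given for Clec7a, which rose, and for Clec4a2 and Clec4a3, which fell. They are the 250 bases before the outermost RefSeq start (GRCm38.p6), read 5′ to 3′ on the strand of the gene, with the core letters bound by PU.1 (GAGGAA, or TTCCTC on the other strand), the lineage factor of myeloid cells, in capitals.
Clec7a: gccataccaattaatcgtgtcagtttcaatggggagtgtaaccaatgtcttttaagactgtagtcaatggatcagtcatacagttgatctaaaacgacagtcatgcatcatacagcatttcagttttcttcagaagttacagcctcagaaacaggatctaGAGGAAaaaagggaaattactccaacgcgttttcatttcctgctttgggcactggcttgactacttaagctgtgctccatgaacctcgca
Clec4a3: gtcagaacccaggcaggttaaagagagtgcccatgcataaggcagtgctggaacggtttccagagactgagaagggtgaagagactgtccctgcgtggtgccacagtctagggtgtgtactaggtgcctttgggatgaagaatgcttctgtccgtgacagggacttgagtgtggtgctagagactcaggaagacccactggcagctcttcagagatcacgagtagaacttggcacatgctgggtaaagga
Clec4a2: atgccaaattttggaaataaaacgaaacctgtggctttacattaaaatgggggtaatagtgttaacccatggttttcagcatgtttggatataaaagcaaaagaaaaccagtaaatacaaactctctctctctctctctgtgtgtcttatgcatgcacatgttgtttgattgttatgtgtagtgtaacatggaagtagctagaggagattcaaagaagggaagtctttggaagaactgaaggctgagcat
The 3 windows lie at chr6:129472786-129473035 (minus strand), chr6:122952265-122952514 (plus) and chr6:123122440-123122689 (plus). The Clec4a2 window lies inside the longer gene span of the annotation. Over the whole window of 250 bases before and 50 after the start, RefSeq windows were at hand for all 7 measured genes, and 5 of the 7 (Clec7a, Clec4a1, Clec5a, Clec12a and the second start of Clec4a3) held the PU.1 letters on either strand, beside 28.3% of 32817 windows of all genes. The AP-1 letters TGANTCA stood in the windows of Clec4a2 and Clec12a (7.81% of all windows), the STAT letters TTCNNNGAA in that of Clec4a2 (8.29%), and the E-box CACGTG in none (7.15%). No overlap between these motifs was removed, and a match describes letters only.

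Levels are given as log2 RPKM (reads per kilobase of gene relative to library size, on the log2 scale) as deposited, to which a prior of 2 reads at the mean library size had been added. A gene was called at an adjusted p under 0.05 with a log2 fold change (log2FC) of at least 0.7 in either direction, in limma with Benjamini-Hochberg adjustment over all 17951 genes, two-sided. Depth ranged from 15623664 to 22119327 reads on the listed genes in WT, 17216633 to 25184600 in Me-X04- and 22430251 to 27579017 in Me-X04+ TG libraries. Mitochondrial genes took 12.6 to 31.3%, 20.6 to 44.8% and 31.3 to 56.8% of those reads. Once group means were removed, the leading principal component held 37.8% of the variance and parted the libraries into set A (WT 1 to 3 and numbers 1 and 2 of both TG groups, 7 libraries) and set B (9 libraries). All 12 microglial markers were detected in every library, with summed RPKM of 4900 to 7670, 4330 to 8470 and 5370 to 8450 in the 3 groups. In such sorted pools, fewer cells with a transcript and less of it per cell cannot be told apart.

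The order of the receptors changed from group to group. In WT microglia Clec4a3 had the highest mean level of the 7 genes (40.8 RPKM), followed by Clec5a (24.8), Clec4a2 (11.1), Clec2d (5.54), Clec4a1 (2.42), Clec7a (1.45) and Clec12a (0.124). In TG Me-X04+ microglia Clec7a stood first at 70.7 RPKM, and Clec5a (16.5), Clec4a3 (8.03), Clec2d (5.53), Clec4a2 (1.47), Clec4a1 (1.08) and Clec12a (0.51) followed. TG Me-X04- microglia had Clec4a3 at 27.4, Clec5a at 22.1 and Clec7a at 10.5 RPKM. Then came Clec2d at 7.39, above its mean in WT and in TG Me-X04+, Clec4a2 at 6.48, Clec4a1 at 2.14 and Clec12a at 0.136. By mean log2 level, the ranges of neighbours in the order overlapped, except those of Clec7a and Clec12a in WT, of Clec5a and Clec7a and of Clec4a1 and Clec12a in TG Me-X04-, and of Clec7a and Clec5a among the TG Me-X04+ libraries.

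The summed level of the 7 genes was 86.3 ± 23.3 RPKM in WT (SD, n = 7), 76.2 ± 6.69 in TG Me-X04- (n = 5) and 104 ± 21.8 in TG Me-X04+ libraries (n = 4). Clec7a made up 1.79 ± 1.12% of that sum in WT (0.523 to 4.01%), 13.8 ± 4.14% in Me-X04- (8.99 to 19.4%) and 67 ± 9.35% in Me-X04+ TG libraries (53.9 to 74.7%). Clec4a1, Clec4a2 and Clec4a3 together made up 62.5 ± 2.98%, 47.1 ± 4.99% and 10.7 ± 4.86%. The ranges of the 3 groups did not overlap for either share. Both are shares of 1 sum, so a rise of Clec7a lowers the other share by itself. Between WT and TG Me-X04- libraries the levels of Clec4a1, Clec4a2 and Clec4a3 each overlapped, and none was called.

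**Figure D1:**
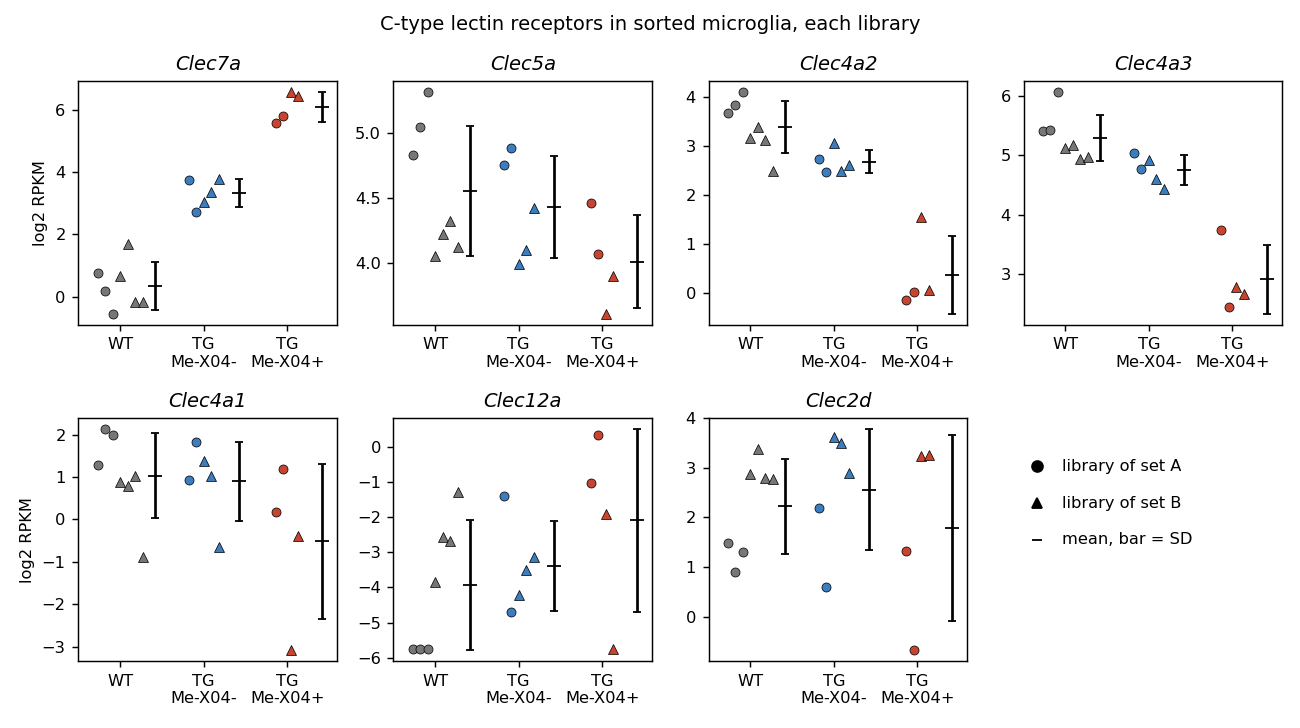
Level of each of the 7 genes in each library (y axis, log2 RPKM, with its own scale in each panel) in the 3 groups, with circles for set A, triangles for set B and the mean with its SD beside each group. Clec7a rises in 2 steps, and Clec4a2 and Clec4a3 are lowest in TG Me-X04+ libraries. In every group the sets split for Clec2d, with set A lower, and for Clec5a, with set A higher. For Clec12a set A is lower in WT and higher in TG Me-X04+, and the sets overlap in TG Me-X04-.

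Clec7a, the β-glucan receptor Dectin-1, was higher in TG Me-X04- than in WT and higher again in TG Me-X04+ microglia. In WT its level ranged from -0.54 to 1.69 with a median of 0.20 log2 RPKM (22 to 187 reads). The TG Me-X04- libraries 1 to 5 had 3.74, 2.73, 3.04, 3.37 and 3.79 (301 to 774 reads). The 4 TG Me-X04+ libraries had 5.57, 5.78, 6.55 and 6.44 (1433 to 4908 reads). No 2 groups overlapped: the lowest TG Me-X04- library lay above the highest WT library, and the lowest TG Me-X04+ library above the highest TG Me-X04- library.

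Between Me-X04+ and Me-X04- TG microglia Clec7a rose by a log2FC of 2.75 (SE 0.39, 95% confidence interval 1.92 to 3.58, adjusted p = 0.000831 by limma), or 6.72-fold. From WT to TG Me-X04- microglia it rose by 2.98 (SE 0.34, interval 2.26 to 3.71, adjusted p = 0.000444), or 7.91-fold, and over both steps by 5.73 (SE 0.37, adjusted p = 3.73e-08), or 53.1-fold. The difference between the 2 steps was -0.24 (interval -1.59 to 1.11, adjusted p = 0.987), so a step of unequal size was not shown and either step may exceed the other within that interval. In the 4 animals with both fractions, the Me-X04+ cells exceeded the Me-X04- cells by 1.83, 3.04, 3.51 and 3.07. Set A alone gave a step of 2.43, and set B alone one of 3.09. In set A alone, with 2 libraries in each TG group, neither the step to TG Me-X04+ (adjusted p = 0.0834) nor that to TG Me-X04- (adjusted p = 0.126) passed the threshold.

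Clec7a was the only one of the 7 genes called from WT to TG Me-X04- microglia, where 0.189% of all genes were called higher and 0.0111% lower. It was also the only one of them whose groups did not overlap there, beside 1.06% of all genes.

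Clec5a, the DAP12-coupled receptor MDL-1, was among the higher receptors in all groups and was called in no comparison. Its WT libraries ranged from 4.05 to 5.31 with a median of 4.32 log2 RPKM. TG Me-X04- libraries had 4.75, 4.88, 3.99, 4.10 and 4.42, and TG Me-X04+ libraries 4.46, 4.07, 3.61 and 3.90. The groups overlapped, and set A lay above set B in each group (means 5.06 and 4.18 in WT, 4.81 and 4.17 in TG Me-X04-, 4.27 and 3.76 among the TG Me-X04+ libraries). The log2FC between Me-X04+ and Me-X04- TG cells was -0.42 (interval -1.02 to 0.19, adjusted p = 0.486 by limma). Within the 4 animals it was -0.29, -0.81, -0.38 and -0.20, and against WT the log2FC was -0.54 (adjusted p = 0.198). Once a term for the library sets was added, Clec5a was lower in TG Me-X04+ cells by adjusted p alone. Its log2FC was then -0.49 against TG Me-X04- (adjusted p = 0.0386 by limma) and -0.6 against WT (adjusted p = 0.00425). Both were too small for the fold threshold of a call. The replicate block gave -0.48 (adjusted p = 0.361 by limma) and -0.74 (adjusted p = 0.0819), and pairing the TG libraries by animal -0.42 (adjusted p = 0.226). Against WT this block joins libraries of different mice and is no pairing by animal.

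Clec4a2 and Clec4a3 fell in TG Me-X04+ microglia. Clec4a2 encodes DCIR, the inhibitory receptor with an ITIM, and Clec4a3 encodes its relative DCIR3. Clec4a2 had a WT range of 2.5 to 4.10 (median 3.38 log2 RPKM). Its TG Me-X04- libraries had 2.73, 2.48, 3.07, 2.49 and 2.62, and its TG Me-X04+ libraries -0.14, 0.02, 1.55 and 0.06. Every TG Me-X04+ library lay below every other library, while WT and TG Me-X04- libraries overlapped.

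Clec4a2 fell from Me-X04- to Me-X04+ TG cells by 2.31 on the log2 scale (SE 0.36, interval -3.06 to -1.55, adjusted p = 0.00124 by limma), which is 4.95-fold lower. Against WT it was 8.12-fold lower (log2FC -3.02, SE 0.33, adjusted p = 1.17e-05). The earlier step, TG Me-X04- against WT, had a log2FC of -0.72 (interval -1.37 to -0.06) that did not pass (adjusted p = 0.914 by limma). The difference between the steps was -1.59 (interval -2.82 to -0.36, adjusted p = 0.832).

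Clec4a3 had a WT range of 4.94 to 6.07 (median 5.17 log2 RPKM). Its TG Me-X04- libraries had 5.05, 4.77, 4.93, 4.61 and 4.43, and its TG Me-X04+ libraries 3.75, 2.45, 2.78 and 2.66. The TG Me-X04+ libraries again lay below all others. The fall from TG Me-X04- was 3.6-fold (log2FC -1.85, SE 0.27, interval -2.42 to -1.28, adjusted p = 0.000971 by limma) and that from WT 5.25-fold (log2FC -2.39, SE 0.25, adjusted p = 8.66e-06). The earlier step had a log2FC of -0.54 (interval -1.04 to -0.04) that did not pass (adjusted p = 0.915 by limma). The difference between the steps was -1.31 (interval -2.24 to -0.37, adjusted p = 0.763), and passed with array weights (-1.56, adjusted p = 0.0454) and in set B alone (-1.55, adjusted p = 0.0431).

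Both falls were seen in each of the 4 animals with both fractions. Clec4a2 differed by -2.87, -2.46, -1.52 and -2.43, and Clec4a3 by -1.30, -2.32, -2.15 and -1.95. Within sets A and B the TG Me-X04+ cells differed from the TG Me-X04- cells by -2.67 and -1.92 for Clec4a2 and by -1.81 and -1.94 for Clec4a3. In set A alone Clec4a2 stayed past the threshold (adjusted p = 0.0362) and Clec4a3 did not (adjusted p = 0.108). Scaled by the reads outside mitochondrial genes, the log2FC of Clec7a, Clec4a2 and Clec4a3 became 2.47, -2.58 and -2.12, with a median over all genes of -0.37 in place of -0.09.

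Of the 7 genes, then, 1 was called higher and 2 lower between Me-X04+ and Me-X04- TG cells, where 3.44% and 2.06% of all genes were. The same 3 genes were those whose groups did not overlap, beside 7.93% of all genes. Against WT, TG Me-X04+ microglia had the same 3 called, beside 8.25% of genes higher and 6.02% lower, and the same 3 without overlap, beside 10.5%. None of the 7 differed between its 2 steps in limma, and nor did any gene of the table (0% called, with 956 genes at an unadjusted p under 0.05 and 1 gene called by limma voom on recovered reads). Other settings passed more genes of the table, 38 with array weights, 52 with a term for the library sets, 85 in set B alone and 6 scaled by the reads outside mitochondrial genes, and Clec4a3 was among those of array weights and set B.

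**Figure D2:**
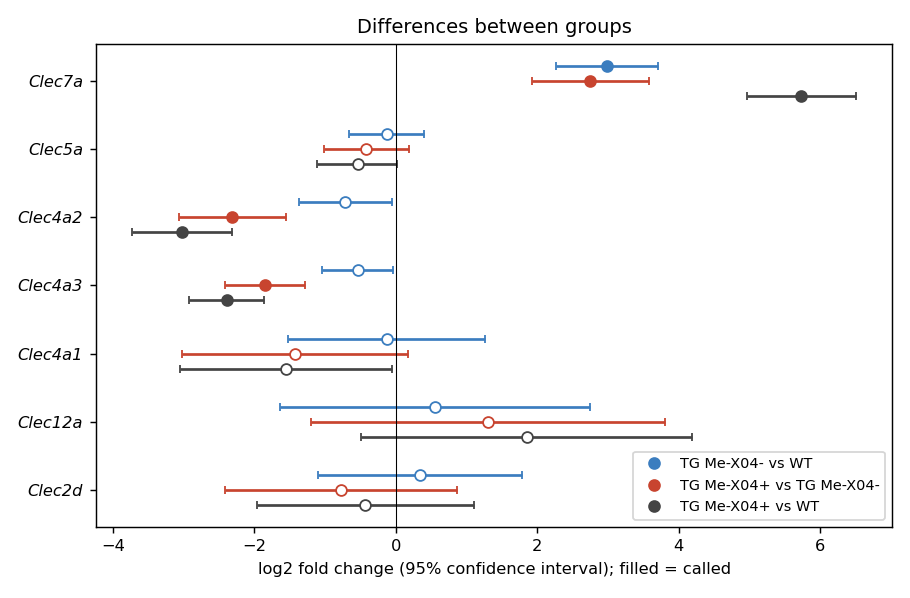
Log2 fold change of each gene (x axis, with its 95% confidence interval) in the 3 comparisons, filled where called. Clec7a lies to the right of 0 in all 3 comparisons. Clec4a2 and Clec4a3 lie to the left of 0 in all 3, and are called only where TG Me-X04+ microglia are compared.

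**Figure D3:**
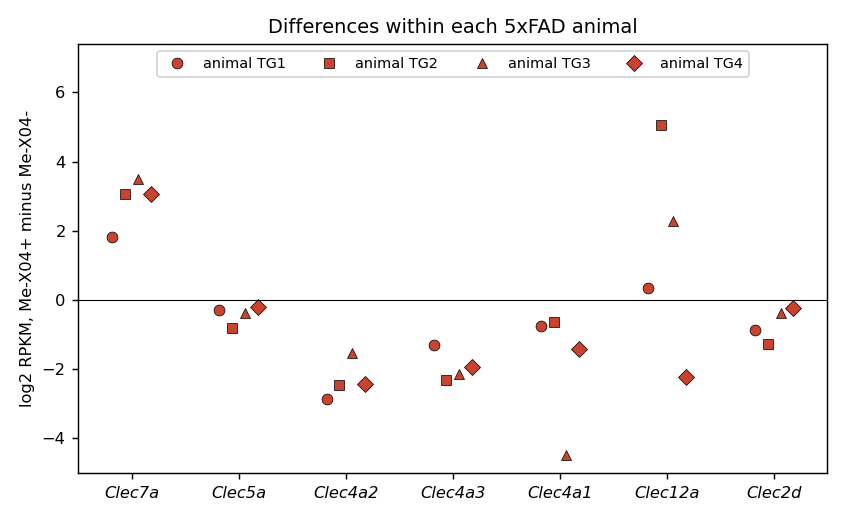
Difference in log2 RPKM between the Me-X04+ and Me-X04- cells of the same animal (y axis) for each gene, 1 symbol per animal. Clec7a is above 0 and Clec5a, Clec4a1, Clec4a2, Clec4a3 and Clec2d are below 0 in all 4 animals, while Clec12a runs from -2.24 to 5.05.

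Clec4a1, which encodes DCIR4, stands next to Clec4a3 on the chromosome. Its WT libraries ranged from -0.89 to 2.14 (median 1.03 log2 RPKM, 18 to 112 reads), its TG Me-X04- libraries had 0.92, 1.83, 1.38, 1.03 and -0.65, and its TG Me-X04+ libraries 0.18, 1.20, -3.09 and -0.38 (2 to 52 reads). The groups overlapped. Its log2FC between Me-X04+ and Me-X04- TG cells was -1.42 (interval -3.02 to 0.17, adjusted p = 0.336 by limma), with -0.74, -0.63, -4.47 and -1.41 in the 4 animals. Without TG Me-X04+ 3, which had 2 reads, it was -0.57. Against WT it was -1.56 (adjusted p = 0.161), and -2.21 where a block for the replicate number was added (adjusted p = 0.0396).

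Clec12a, the ITIM-bearing receptor MICL, was near the limit of detection. It had 0 reads in WT 1, 2 and 3 and in TG Me-X04+ 4, and at most 49 reads in the other WT and 31 in the TG Me-X04- libraries. TG Me-X04+ 1, 2 and 3 had 32, 96 and 29 reads. The WT libraries with 0 reads were all those of set A. The difference between Me-X04+ and Me-X04- TG cells was 1.30 (interval -1.20 to 3.81, adjusted p = 0.619 by limma), with 2.70 in set A and -0.21 in set B. Against WT it was 1.85 (adjusted p = 0.306), and in set A alone 5.40 (adjusted p = 0.024), a fitted value that depends on the added prior since all WT libraries of the set were at 0.

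Clec2d encodes Clr-b, which is less a receptor than a ligand, bound by the inhibitory receptor NKR-P1B (Klrb1b). Its level followed the library sets. Set A had 0.90 to 1.49 log2 RPKM in WT, 0.61 to 2.19 in Me-X04- and -0.67 to 1.33 in Me-X04+ TG libraries, and set B 2.78 to 3.38, 2.89 to 3.61 and 3.23 to 3.26. The log2FC was -0.77 between Me-X04+ and Me-X04- TG cells (interval -2.42 to 0.87, adjusted p = 0.659 by limma), 0.34 from WT to TG Me-X04- (adjusted p = 0.999) and -0.43 between TG Me-X04+ and WT (adjusted p = 0.759). Within set B the first of these was -0.08.

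Across the 16 libraries the levels of Clec4a2 and Clec4a3 had a Pearson r of 0.91, and Clec7a an r of -0.84 with Clec4a2 and -0.88 with Clec4a3. These follow the groups: with the group means removed the 3 values were 0.30, 0.17 and -0.33. The deviations of Clec5a and Clec2d had an r of -0.74, and those of Clec5a and Clec4a3 0.67, in libraries that share their sets.

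The profile most like that of Clec7a, among 13323 other genes with a mean of at least 0 log2 RPKM, belonged to Axl (r = 0.974 over the 16 libraries), a receptor tyrosine kinase. Cst7, a cysteine protease inhibitor, followed with 0.970, then Lgals3bp with 0.953, the chemokine gene Ccl3 with 0.950 and Apoe, the lipid carrier, with 0.950. The mean log2 RPKM of Axl was 0.36, 3.46 and 6.44 in WT, Me-X04- and Me-X04+ TG cells, beside 0.35, 3.34 and 6.08 for Clec7a. With group means removed the 5 values of r were between 0.15 and 0.40.

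The profiles most like that of Clec4a2 belonged to Gpr165 (r = 0.955), an orphan receptor, the ATP-gated channel P2rx7 (0.942), adenosine deaminase Ada (0.942), Bank1 (0.938) and Mboat1 (0.934). Gpr165 went from a mean of 3.90 log2 RPKM in WT to 1.99 in Me-X04- and -0.94 in Me-X04+ TG cells. Its r with Clec4a2 was 0.77 with the group means removed, and that of the other 4 lay between 0.43 and 0.58.

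The genes around the members were compared by their order on the chromosome, over 2 stretches drawn after the values had been seen. From Clec4a1 to Clec4n the stretch of 325 kb holds 7 coding genes, of which 5 were measured. Clec4a3, Clec4a4, Clec4b1 and Clec4a2 were called lower in Me-X04+ than in Me-X04- TG microglia, and Clec4a1, at the edge, was not. Clec4a4, which encodes DCIR2, had a log2FC of -2.76 (SE 0.61, adjusted p = 0.0131 by limma, groups overlapping) and 1 to 28 reads in TG Me-X04+ against 23 to 111 in TG Me-X04- libraries. Clec4b1 had 5 to 15 reads in TG Me-X04- libraries, and 0 in 3 and 2 in the other of the 4 TG Me-X04+ libraries (log2FC -1.93, SE 0.42, adjusted p = 0.0117, a size that depends on the prior). Clec4b1 was not called with quantile normalization (-1.13, adjusted p = 0.204) or with the TG libraries alone paired by animal (-1.93, adjusted p = 0.118), and in a fit of only these 2 groups neither gene was called (adjusted p = 0.0756 for Clec4a4 and 0.078 for Clec4b1). Of the 50-base words of their transcripts, 15.7% in Clec4a4 and 8.68% in Clec4b1 also occur in Clec4a2, and 6.83% of those of Clec4a2 occur in another gene, so reads of these 3 may be shared. Clec4a3, Clec4a1, Clec5a and Clec7a share no such word with another gene.

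From Clec2d to Olr1, 327 kb hold 10 coding genes, 7 of them measured, and Clec7a alone was called between Me-X04+ and Me-X04- TG cells. Its neighbour at 9.6 kb, Clec1a, had a log2FC of 2.73 (SE 0.81, adjusted p = 0.0581 by limma) without overlap, and against WT was called with 3.58 (adjusted p = 0.00325). Without WT 1, WT 7 or TG Me-X04+ 1 the first value passed (2.73, 2.73 and 3.14, with adjusted p of 0.0378, 0.047 and 0.0471). It also passed with a term for the library sets (2.65, adjusted p = 0.0298 by limma), limma voom (adjusted p = 0.0348) and log2(RPKM + 1) (adjusted p = 0.0213). With the replicate block (adjusted p = 0.123) or paired by animal (adjusted p = 0.0533) it did not. The call of Clec1a against WT was lost in set A alone (2.58, adjusted p = 0.2 by limma). Olr1, the receptor for oxidised LDL at 12.5 kb on the other side, had 1.84 (adjusted p = 0.208), and 2.83 against WT (adjusted p = 0.0139), which became 2.26 without TG Me-X04+ 1 (adjusted p = 0.058). The call of Olr1 against WT was also lost in set A alone (3.71, adjusted p = 0.11 by limma) and in set B alone (2.05, adjusted p = 0.0907). Clec9a had 2.13 (adjusted p = 0.276) and Clec1b, 32.0 kb from Clec12a, 1.37 (adjusted p = 0.435). Leaving out 1 library moved Clec9a within 0.91 (without TG Me-X04+ 2) to 2.93 and Clec1b within 0.85 (without TG Me-X04+ 3) to 2.16, and Clec9a had 4.88 in set A and -0.41 in set B.

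The other nearest measured genes were called in no comparison. They were Gm5316 before Clec4a1, Cd163 after Clec4a2 at 1160.7 kb, Tas2r108 and Gstk1 on the sides of Clec5a, Clec2i before Clec2d and the lincRNA 2310001H17Rik between Clec2d and Clec12a. Against WT, Gm5316 (-2.45) was called with the replicate block (-3.63, adjusted p = 0.0303 by limma) and without TG Me-X04+ 2 (-3.71, adjusted p = 0.0454), and Cd163 (1.80) without TG Me-X04+ 4 (3.16, adjusted p = 0.0319) and in set A alone (4.80, adjusted p = 0.0194).

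**Figure D4:**
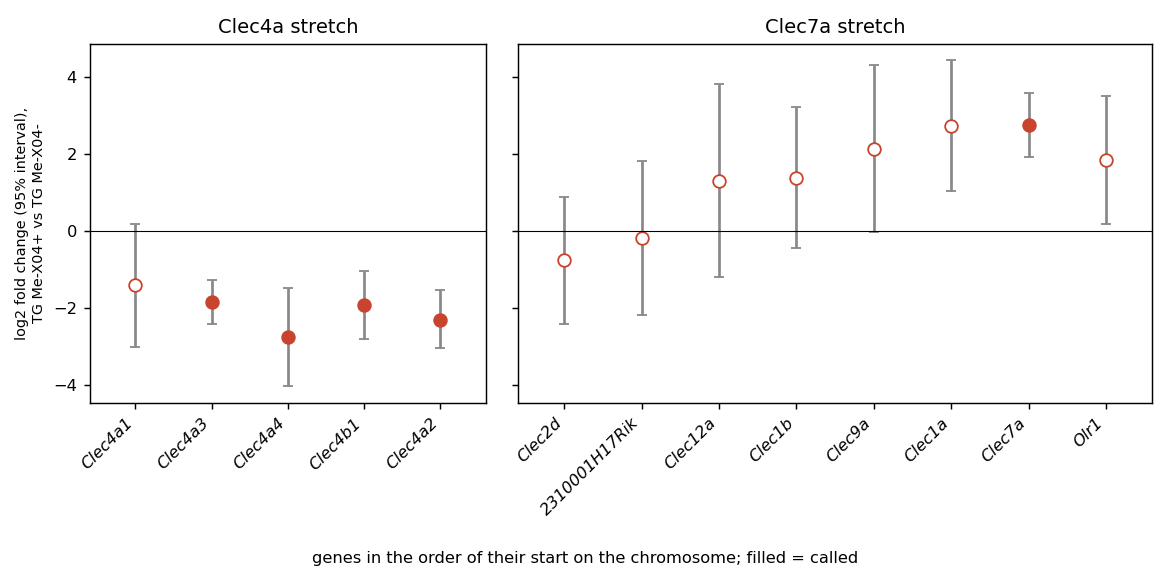
Log2 fold change between Me-X04+ and Me-X04- TG microglia (y axis, with 95% confidence interval) of the measured genes of the 2 stretches, in chromosomal order from left to right, filled where called. The 5 genes of the Clec4a stretch lie below 0, 4 of them called, and from Clec12a to Olr1 the values lie between 1.30 and 2.75 with Clec7a the called one, the wide intervals of Clec12a, Clec1b and Clec9a crossing 0.

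Among 60 other genes of the C-type lectin family, 21 were measured. Between Me-X04+ and Me-X04- TG cells 1 was called higher and 2 lower, beside 3.44% and 2.06% of all genes. The median log2FC was -0.12 beside -0.09 over all genes, and limma voom called 5 in all. The lower ones were Clec4a4 and Clec4b1. The higher one was Klrb1b, the counter-receptor of Clec2d, with mean log2 RPKM of -3.25 in WT, -0.78 in Me-X04- and 2.09 in Me-X04+ TG libraries (log2FC 2.87, SE 0.81, adjusted p = 0.0462 by limma). This call was lost in 11 of 16 fits that left out 1 library (WT 1, 6 or 7, TG Me-X04- 2, 3, 4 or 5, or any TG Me-X04+), with a log2FC of 2.29 to 3.15 in those and an adjusted p of up to 0.121. Against WT Klrb1b was called with 5.35 (SE 0.76, adjusted p = 0.000117 by limma), a size that lay within 2.22 to 6.31 across the alternatives. In that comparison 4 of the 21 genes of the family rose (Klrb1b, Clec1a, Mrc2 and Olr1) and 4 fell (Clec4a4, Clec4b1, Klrd1 and Fcer2a), with a median of 0.18, beside 8.25% and 6.02% of all genes. The call of Fcer2a (-2.09) was lost in 8 of the 16 fits without 1 library (WT 3, 4, 5, 6 or 7, or TG Me-X04+ 1, 2 or 3; -2.09 to -1.91) and with the replicate block (-1.59, adjusted p = 0.133 by limma). That of Klrd1 (-2.52) was lost without TG Me-X04+ 3 or 4 (-2.19 and -1.88) and with the block (-2.63, adjusted p = 0.0651 by limma). From WT to TG Me-X04- Mrc2, the collagen receptor Endo180, was the 1 gene called (1.11, SE 0.22, adjusted p = 0.0459 by limma), beside 0.189% of all genes called higher. That call was lost in 13 of the 16 fits without 1 library (log2FC 1.03 to 1.18), all but those without TG Me-X04+ 1, 2 or 3. It was also lost with the replicate block (1.08, adjusted p = 0.198). With a term for the library sets Mrc2 kept its call (1.12, adjusted p = 0.0101 by limma). So did Fcer2a and Klrd1 between TG Me-X04+ and WT (-2.02, adjusted p = 0.014, and -2.59, adjusted p = 0.00874).

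Of 28 genes of adaptors and the Syk-CARD9 route, 27 were measured. Between Me-X04+ and Me-X04- TG cells 2 rose and none fell (median -0.26), beside 3.44% and 2.06% of all genes. None was called from WT to TG Me-X04- (unadjusted p under 0.05 in 1, 0 called by limma voom). Fcer1g, the adaptor of Dectin-2, rose from a mean of 9.30 to 10.32 log2 RPKM (log2FC 1.02, SE 0.29, adjusted p = 0.0435 by limma). The kinase gene Fyn rose from -0.06 to 1.68 (1.75, SE 0.46, adjusted p = 0.0347). Both calls lay near the threshold. That of Fcer1g was lost in 12 of the 16 fits without 1 library, at 0.91 to 1.04. These left out WT 1, 2, 4, 5, 6 or 7, TG Me-X04- 3, 4 or 5, or TG Me-X04+ 1, 2 or 3. Without those WT libraries the log2FC of Fcer1g stayed at 1.02, with an adjusted p of 0.0507 to 0.0584 by limma. That call was also lost with quantile normalization (0.26, adjusted p = 0.54) or scaling by reads outside mitochondrial genes (0.75, adjusted p = 0.0966). It held with the TG libraries paired by animal (0.91, adjusted p = 0.00962) and with a term for the library sets (0.97, adjusted p = 0.000437). The call of Fyn was lost in 7 of the 16 fits, at 1.30 to 1.86 (TG Me-X04- 1, 3, 4 or 5, or TG Me-X04+ 1, 2 or 3). It was also lost with the block (adjusted p = 0.0821) and paired by animal (1.81, adjusted p = 0.139). It held with the set term (1.71, adjusted p = 0.0163).

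The adaptors of Clec5a were not called between Me-X04+ and Me-X04- TG cells in the fit of groups alone. Tyrobp (DAP12) had means of 8.91, 9.25 and 11.15 log2 RPKM in WT, Me-X04- and Me-X04+ TG cells, and a log2FC between the latter of 1.90 (SE 0.65, adjusted p = 0.104 by limma). Hcst (DAP10) had 2.05, 2.42 and 4.05, and a log2FC of 1.63 (SE 0.61, adjusted p = 0.141). With the replicate block both passed, at 2.10 (adjusted p = 0.014) and 1.62 (adjusted p = 0.0118), and Hcst also without TG Me-X04+ 2 (2.21, adjusted p = 0.0459). Both passed too with the TG libraries paired by animal (1.97, adjusted p = 0.00082, and 1.69, adjusted p = 0.0117 by limma). With a term for the library sets they had 2.09 (adjusted p = 1.38e-05) and 1.75 (adjusted p = 0.0215). Tyrobp also passed in set A alone (2.03, adjusted p = 0.0165) and set B alone (2.17, adjusted p = 0.00611). Hcst passed in set B alone (1.66, adjusted p = 0.0349). Syk had means of 3.35, 3.08 and 2.53 and a log2FC of -0.55 (SE 0.30, adjusted p = 0.357). The 4 phosphatases of the ITIM route (Ptpn6, Ptpn11, Inpp5d, Inppl1) gave 0 calls in limma in each comparison, 0 at an unadjusted p under 0.05 and 0 by limma voom.

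Of 11 genes of ligands, counter-receptors and membrane partners, 10 were measured. Between Me-X04+ and Me-X04- TG cells 4 rose and none fell (median 0.71 beside -0.09 over all genes), where 3.44% and 2.06% of all genes were called higher and lower. Anxa5, an annexin of the kind that Dectin-1 is reported to bind, rose by a log2FC of 2.02 (SE 0.44, adjusted p = 0.0119 by limma) and Cd63, a lysosomal tetraspanin, by 2.00 (SE 0.32, adjusted p = 0.00158). Trem2, the lipid receptor that shares DAP12 with Clec5a, rose by 1.35 (SE 0.23, adjusted p = 0.0021) and Tlr2, a partner of Dectin-1 in the response to yeast, by 1.20 (SE 0.26, adjusted p = 0.011). None of the 10 was called from WT to TG Me-X04- (unadjusted p under 0.05 in 2 in limma, 0 called by limma voom). In set A alone none of the 4 passed, with log2FC of 1.15 to 2.13.

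Of 19 genes known to respond to Dectin-1 in other cells, 10 were measured. Between Me-X04+ and Me-X04- TG cells 4 rose and 1 fell (median 0.89), beside 3.44% and 2.06% of all genes, and 3 in all were called with the replicate block. The chemokine genes Ccl3 (2.73, SE 0.33, adjusted p = 0.00023 by limma) and Ccl4 (2.21, SE 0.47, adjusted p = 0.0107) rose, and Ccl3 had also risen between WT and TG Me-X04- (2.20, SE 0.29, adjusted p = 0.00157). Il1rn, the interleukin-1 receptor antagonist, rose by 3.03 (SE 0.82, adjusted p = 0.0386) and Egr2, named for its call, by 2.11 (SE 0.54, adjusted p = 0.0305). With the replicate block neither passed (2.85, adjusted p = 0.0738, and 2.18, adjusted p = 0.0575). With the TG libraries alone paired by animal both passed (2.83, adjusted p = 0.021, and 2.16, adjusted p = 0.0188 by limma). Without 1 library the call was lost for Il1rn in 7 of 16 fits (WT 4, TG Me-X04- 1, 3, 4 or 5, TG Me-X04+ 1 or 2; 2.54 to 3.07) and for Egr2 in 7 (any TG Me-X04-, TG Me-X04+ 2 or 3; 1.74 to 2.18). Socs3, a feedback inhibitor of cytokine signalling, fell by 2.29 on the log2 scale (SE 0.46, adjusted p = 0.00748), and by 2.23 with the TG libraries alone paired by animal (adjusted p = 0.0568). In set A alone Ccl3 kept its call, while Ccl4, Il1rn, Egr2 and Socs3 did not pass (adjusted p = 0.0774, 0.385, 0.41 and 0.0931 by limma). From WT to TG Me-X04- Ccl3 and Egr2 were the 2 genes called (median 1.56 over the 10), beside 0.189% of all genes called higher. In set A alone neither passed (adjusted p = 0.169 and 0.514 by limma). Egr2 (2.53, adjusted p = 0.0343) was not called with the block (2.49, adjusted p = 0.189). It stayed called with a term for the library sets (2.53, adjusted p = 0.0169 by limma). Its call was lost in 11 of the 16 fits that left out 1 library (WT 4, 5, 6 or 7, any TG Me-X04-, TG Me-X04+ 3 or 4), at 2.47 to 2.61.

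Markers of other cells in the gate were measured beside these genes, and their part in the results was not tested. Dendritic cell markers (4 of 6 measured) summed to 3.38 to 4.77 RPKM in WT, 2.18 to 4.44 in Me-X04- and 1.5 to 2.09 in Me-X04+ TG libraries, and Xcr1 and Cd209a have no row. Monocyte markers (4 of 6) summed to 2.16 to 4.47, 1.79 to 9.97 and 1.62 to 9.11, and border macrophage markers (7 of 7) to 2.51 to 6.40, 1.78 to 7.65 and 2.82 to 20.9. Neutrophil markers (4 of 8) summed to 67.6 to 117, 54.6 to 130 and 92.4 to 173, nearly all of it Csf3r, which had means of 90.1, 89.4 and 121. Endothelial markers (2 of 4) summed to 2.27 to 12.5, 1.19 to 1.98 and 1.13 to 7.59, neuronal markers (3 of 4) to at most 1.91, astrocyte markers (3 of 4) to at most 4.56, oligodendrocyte markers (3 of 4) to at most 7.05 and lymphocyte markers (1 of 9) to at most 0.891 RPKM in any library. Of all these markers Tmem119, of the microglial list, was called lower between Me-X04+ and Me-X04- TG cells (log2FC -1.58, SE 0.32, adjusted p = 0.00821 by limma) and Flt1, of the endothelial list, higher (3.55, SE 0.69, adjusted p = 0.00608), and none was called from WT to TG Me-X04-. Between TG Me-X04+ and WT cells 9 markers were called in limma. Flt1 (5.87) and the monocyte marker Fn1 (4.58) were higher. Their mean RPKM in WT, Me-X04- and Me-X04+ TG libraries was 0.0269, 0.139 and 1.31 for Flt1 and 0.0289, 0.138 and 0.837 for Fn1. At such low levels the sizes depend on the prior, that of Flt1 between the TG groups included. The microglial markers Tmem119 (-1.55) and P2ry12 (-0.97), the monocyte marker Ccr2 (-1.57), the dendritic cell markers Itgae (-1.74) and Siglecg (-3.47), the neuronal Snap25 (-3.19) and the endothelial Pecam1 (-4.83) were lower, with adjusted p of 1.17e-05 to 0.0257 over the 9.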

How the data were processed

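The authors trimmed reads with Trim Galore 0.4.4, aligned them with STAR 2.5.4b to GRCm38, counted them on Gencode genes with featureCounts, filtered low genes and scaled libraries by TMM in edgeR 3.24.3. They deposited log2 RPKM per library and gene, whose low values are equal steps, so that whole reads were recovered (100% of values within 0.01 of a whole read). They also deposited gene lengths and 2 comparisons of their own (log2 fold changes, p-values, adjusted p-values and moderated t and log-odds score columns), which were not used. The methods name 2 sequencers without saying which library ran on which, and do not state whether counting used strand. Reads could map to several positions.

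Tests used limma 3.58.1 (R 4.3.3) on the log2 values as the authors deposited them. All 16 libraries entered 1 fit with a coefficient for each group and eBayes with trend, two-sided and Benjamini-Hochberg adjusted over 17951 genes. The study's quasi-likelihood test needs counts and was not run. The script was tested on simulated data. Alternatives were other variance models, scalings and filters, log2(RPKM + 1), limma voom, the 2 groups alone, a replicate block, a term for the library sets and each library left out. Fits within set A, within set B and of the TG libraries with the animal as block were added after seeing the data. Members and gene lists were chosen with earlier results of these data known.

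The numbers pair the TG libraries, since labels give both fractions of a number the same animal. Their deviations from the group means had an r of 0.292 to 0.329 in the 4 pairs. Both libraries of each pair also lie in the same library set, so animal and set cannot be told apart in these values. In a comparison with WT, the replicate block also joins TG libraries to WT libraries of other mice. Number 3 joins WT 3 of set A to TG libraries of set B, and WT 6 and 7 have no TG library of their number. Values of the block against WT are therefore no check by animal, for calls gained and calls lost alike. Named genes were every member, the nearest measured gene on each side, from each list at most 4 called genes with the largest log2FC between Me-X04+ and Me-X04- TG cells (with Fcer1g, Tyrobp, Hcst and Syk always), and the 5 profiles most like Clec7a and like the member with the lowest log2FC. Mrc2, Egr2, Clec9a, the called markers and the 2 chromosomal stretches were named after their values were seen. Coordinates are from GENCODE on GRCm38, a later release than the authors counted on, and promoters from RefSeq. P-values measure the spread between libraries, each of WT from a mouse of its own. Depth is that of reads on listed genes. Tables and figures were made with Python 3.11.15, pandas and matplotlib.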

Additional observations from a re-analysis of the deposited data

Results flagged for a closer look

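Clec4a2 in TG Me-X04+ 3 stood apart from its group, at 1.55 log2 RPKM against 0.06 in the nearest and -0.14 in the farthest of the other 3 libraries, a gap of 0.881 of the whole range, above Dixon's critical value for 4 samples. Among 21 combinations of gene and group examined it was the only one, and chance alone marks about 1 in 20 groups. Without this library the log2FC of Clec4a2 between Me-X04+ and Me-X04- TG cells was -2.70 (adjusted p = 0.000226 by limma) in place of -2.31. The same library had the lowest Clec4a1 of its group (-3.09 log2 RPKM).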

How the results depend on the processing

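Among the 7 genes no called difference changed sign under any alternative. The number called was 3, 1 and 3 between Me-X04+ and Me-X04- TG cells, TG Me-X04- and WT, and TG Me-X04+ and WT, and leaving out each library in turn (16 fits) left it at 3, 1 and 3, with none differing between its 2 steps (0). Only the fit of set A, with 7 libraries, called fewer: 1 in the first comparison and 0 in the second. The steps of 1 gene, Clec4a3, differed with array weights and in set B alone. Leaving out 1 library moved the log2FC of Clec7a between Me-X04+ and Me-X04- TG cells within 2.59 to 2.92, of Clec4a2 within -2.70 to -2.13 and of Clec4a3 within -2.13 to -1.70. Without 1 library the uncalled values moved within -2 to -0.57 for Clec4a1, -0.57 to -0.28 for Clec5a, -1.26 to 0.05 for Clec2d and 0.49 to 2.52 for Clec12a.

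With the replicate number as a block, 3, 1 and 4 genes were called. Clec7a had 2.95 (adjusted p = 0.00134 by limma), Clec4a2 -2.34 (adjusted p = 0.00156) and Clec4a3 -1.93 (adjusted p = 0.00212) between Me-X04+ and Me-X04- TG cells. The gene gained was Clec4a1 against WT, which a term for the library sets also gained (-1.66, adjusted p = 0.038). In the TG libraries alone, paired by animal, the 3 genes had 2.86, -2.32 and -1.93 (adjusted p = 0.00208, 0.00771 and 0.00292). Quantile normalization called Clec5a against WT (-0.76, adjusted p = 0.029), and between Me-X04+ and Me-X04- TG cells ended the calls of Trem2 (0.75, adjusted p = 0.073) and Tlr2 (0.83, adjusted p = 0.0815). The fit of only 2 groups gives no value for the difference between steps, and Clec12a none under the filter on mean level. At under 100 reads in every library, Clec12a allows no firm statement.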

Other observations

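Between TG Me-X04+ and WT microglia, further genes of the receptor routes passed the threshold in limma, named here for their calls after their values were seen. Of the 27 measured genes of adaptors and Syk-CARD9 signalling, 5 rose (Fcer1g, Tyrobp, Hcst, Fgr and Fyn) and 3 fell (Vav2, Prkcd and Nfatc2), with a median log2FC of -0.28 beside -0.11 over all genes, of which 8.25% were called higher and 6.02% lower. Fgr, a Src family kinase, had mean log2 RPKM of -2.86 ± 1.48 in WT (SD, n = 7) and 1.89 ± 0.72 in TG Me-X04+ cells (n = 4), a log2FC of 4.75 (SE 0.69, adjusted p = 0.00015). The WT level of Fgr is low, and its log2FC lay within 2.01 to 5.44 across the alternatives. Prkcd, the kinase PKC-delta that acts between Syk and CARD9, fell by 1.06 on the log2 scale (SE 0.21, adjusted p = 0.00209). Calls of 3 of these genes depended on single libraries: Tyrobp was not called without TG Me-X04+ 3 or 4 (1.85 and 1.94), Hcst not without TG Me-X04+ 1, 3 or 4 (1.95, 1.68 and 1.80) and Fyn not without TG Me-X04+ 1 (1.09) or with the replicate block (1.59, adjusted p = 0.0654). With quantile normalization neither Fcer1g (0.41, adjusted p = 0.145) nor Tyrobp (1.41, adjusted p = 0.281) was called. With a term for the sets Tyrobp, Hcst and Fyn kept their calls (2.37, 2.09 and 1.52, adjusted p up to 0.0125 by limma).

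Of the 10 measured ligands and partners, Anxa5, Cd63, Trem2, Tlr2 and Vim rose and Tlr4 fell, where 8.25% and 6.02% of all genes were called higher and lower. Vim, which encodes vimentin, had a log2FC of 3.55 (SE 0.80, adjusted p = 0.00531 by limma), and Tlr4, the receptor for lipopolysaccharide, one of -0.92 (SE 0.19, adjusted p = 0.00306). The log2FC of Vim lay within 1 to 3.87 across the alternatives. Of the 10 measured response genes, Il1rn, Ccl3, Ccl4, Egr1 and Egr2 rose and Socs3 fell, the last with a log2FC of -1.58. Socs3 was not called without TG Me-X04+ 1 or 2 (-1.35 and -1.21), with the replicate block (-1.32, adjusted p = 0.116), with voom (adjusted p = 0.0509), with array weights (adjusted p = 0.0539), in a fit of the 2 groups alone (adjusted p = 0.0623) or within set A or B (adjusted p = 0.0719 and 0.111). It kept its call with a term for the library sets (-1.53, adjusted p = 0.00462 by limma). Egr1, an immediate-early transcription factor, had means of 0.40 ± 0.70 in WT and 3.29 ± 0.46 in TG Me-X04+ cells (log2FC 2.90, SE 0.37, adjusted p = 4.42e-05). In set A alone Fyn, Hcst, Vav2, Prkcd, Nfatc2, Vim, Tlr2, Tlr4 and Socs3 were not called (adjusted p = 0.0598 to 0.273).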
